A study of Mus musculus with 6 samples.

Results

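The cytosolic ribosomal protein genes were taken as all rows of the gene expression table whose name begins with Rpl or Rps followed by a digit, x, p0, p1, p2 or a. Names with -ps and the Rps6k kinases were left out, and the mean over the 6 libraries had to be at least 10 FPKM, a read number scaled for gene length and library depth. This gave 82 genes of 54532 rows, 49 of the large and 33 of the small subunit. The genes were thus chosen by name and by their mean FPKM over both groups. No difference between groups entered this rule, but the family was chosen with earlier results of these data known. Of 93 rows with a matching name, 11 lay under the limit, 5 of them at 0 in every library. Just inside were Rpl13a at 11.6 FPKM and Rpl37rt at 20.2 FPKM, and just outside were Rps3a2 at 8.86 FPKM and Rps3a3 at 5.67 FPKM. The cells were MC3T3-E1, a mouse pre-osteoblast line from skull bone, kept for 12 hours under normal conditions (control, 3 libraries) or with glucocorticoid (GC, 3 libraries). Which glucocorticoid was given, and how much, is not in the labels, and they list no transgene or deletion for either group.

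Ribosomal proteins coat the ribosomal RNA of the small subunit, which reads the mRNA, and of the large subunit, which joins the amino acids. Their genes are among the most highly expressed of dividing and matrix-secreting cells, and most of the proteins are needed in equal numbers. Their mRNAs begin with a C followed by a run of C and T, the terminal oligopyrimidine (TOP) tract, through which the kinase mTORC1 and the protein LARP1 set their translation. By name and annotation all but 4 of the genes encode ribosomal proteins or coding paralogs of them. The 4 are Rps19bp1, which encodes a binding partner of RPS19, Rpl7l1, known for ribosome assembly, and Rpl6l and Rpl37rt, annotated as pseudogenes.

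Start sites bear on the TOP tract, and they are printed for genes described below: Rps6 and Rpl38 as examples that hold the tract, Rpl22l1 and Rps27l for the highest fold change of each subunit, Rps24 for its calls in some settings, and Rpl7l1, which lacks it. Promoters of 61 of the 82 genes were matched by symbol in RefSeq (GRCm38.p6). A C followed by 4 letters that are each C or T stood exactly at an annotated start in 13 of the 61, or 21.3%, against 3.01% of 27025 genes. An unbroken run of at least 8 letters of C and T lay within 15 bases on either side in 26 of the 61, or 42.6%, against 13.9% of all genes. Neither rule was met by most of the matched genes. Both strings were sought on the gene's own strand, and the second can contain the first. Each line gives 15 bases before and 15 from the annotated start, 5′ to 3′ on the gene's strand, with the longest run of C and T in capitals.
Rps6 (chr4:86857353-86857382, minus strand): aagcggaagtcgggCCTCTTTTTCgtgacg
Rpl38 (chr11:114668565-114668594, plus strand): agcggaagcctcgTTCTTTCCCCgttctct
Rps24, first start (chr14:24490663-24490692, plus strand): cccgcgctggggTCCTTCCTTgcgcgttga
Rps24, second start (chr14:24490738-24490767, plus strand): tccggcgccgtagccatcatggtgagTCTC
Rps27l, first start (chr9:66946071-66946100, plus strand): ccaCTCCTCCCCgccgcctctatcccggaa
Rps27l, second start (chr9:66946398-66946427, plus strand): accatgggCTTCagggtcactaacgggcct
Rpl22l1 (chr3:28805493-28805522, plus strand): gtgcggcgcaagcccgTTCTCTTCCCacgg
Rpl7l1 (chr17:46782642-46782671, minus strand): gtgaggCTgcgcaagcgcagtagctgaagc
Rps6 and Rpl38 meet the stricter rule, and no start of Rps24, Rps27l, Rpl22l1 or Rpl7l1 does. In Rpl22l1 the run begins just after the start, and in Rpl7l1 the longest run has 2 letters.

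Reads could be recovered as whole numbers for most rows (see the processing notes), and they summed to between 14451644 and 16129681 per library. Of the 82 genes 78 had recovered reads, from 151 for Rpl37rt to 59778 for Rplp0 in a single library, and 70 of them had at least 1000 reads in every library. The glucocorticoid response was present in each treated library. Tsc22d3, a classical glucocorticoid target, stood at 29.9, 28.3 and 27.0 FPKM in control 1 to 3 and at 171, 146 and 171 FPKM in GC 1 to 3. The 8 osteoblast-lineage markers summed to between 3980 and 4182 FPKM in control and to between 3421 and 3692 FPKM in GC, lower in each GC library than in any control. Single markers went different ways. Col1a1, a collagen chain of bone matrix, stood at 1810, 1723 and 1733 FPKM in control and at 1511, 1579 and 1159 FPKM in GC. Col1a2 was lower in each GC library too, at 750, 718 and 610 FPKM against 802, 774 and 795 FPKM. Sp7 was higher in each, at 6.03, 4.49 and 4.33 FPKM against 3.95, 4.10 and 3.97 FPKM. In the other markers the groups overlapped, among them Spp1, the osteopontin gene, between 1011 and 1327 FPKM. None of these 8 was at 0 in every library, but the phosphatase gene Alpl was at 0 in all libraries except GC 3 (0.0288 FPKM) and Bglap, the osteocalcin gene, did not exceed 1.43 FPKM. The summed level of 5 blood cell markers lay between 0.397 and 0.748 FPKM in control and between 0.511 and 1.22 FPKM in GC, and markers of fat, muscle and endothelium summed to at most 0.247 FPKM. Of 2 epithelial markers Epcam was at 0 throughout, and Krt14, a keratin gene, was at 2.26, 2.06 and 1.45 FPKM in control 1 to 3 and at 0.1005, 0.168 and 0 FPKM in GC 1 to 3. The part of these markers in the results below was not tested. In RNA of whole cultures a change per cell and a change in the mix of cells cannot be told apart.

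Glucocorticoid-treated libraries went different ways in ribosomal protein mRNA, and no gene of the family passed the test. Ribosomal protein genes held 10.3%, 9.89% and 10.99% of all FPKM in control 1 to 3, while GC 1 to 3 had 11.9%, 8.64% and 11.4%. GC 1 and GC 3 thus lay above every control and GC 2 below every control. The large subunit held 5.85%, 5.67% and 6.52% in control and 6.77%, 4.99% and 6.62% in GC. The small subunit held 4.43%, 4.22% and 4.47% in control and 5.08%, 3.66% and 4.79% in GC. Both subunits followed the same order of libraries among the GC samples, and the ratio of their sums ranged only from 1.32 to 1.46, both ends being control libraries.

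**Figure D1:**
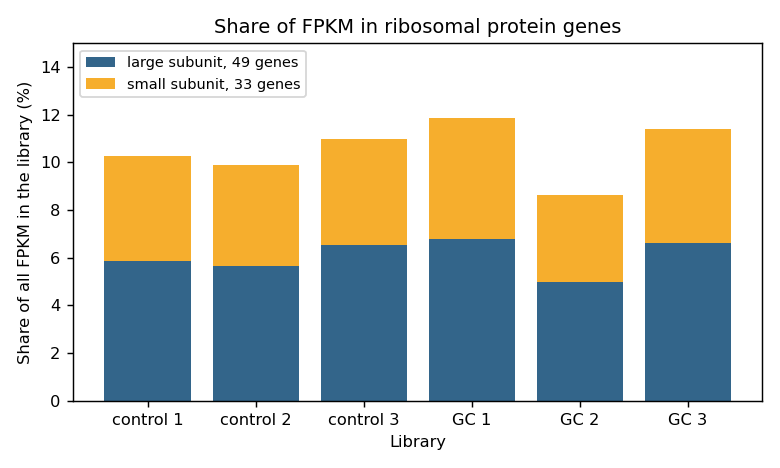
Share of all FPKM (%) held by 49 large-subunit genes (lower part of each bar) and 33 small-subunit genes (upper part) in the 3 control and 3 GC libraries. The whole bar is highest in GC 1 at 11.9% and lowest in GC 2 at 8.64%.

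The same split appeared gene by gene. GC 1 lay above all 3 controls for 64 of the 82 genes, GC 3 for 51, and GC 2 for 1 gene. GC 2 lay below all 3 controls for 71 of the 82, while GC 1 and GC 3 did so for 2 and 1. Among all 11730 tested genes GC 1, GC 2 and GC 3 exceeded every control in 38.5%, 25.1% and 34.2%, and lay below every control in 36.2%, 37.2% and 36%. GC 1 was the highest of the 6 libraries for 64 genes, against 29.6% of all genes, and GC 2 the lowest for 70, against 20.5%. Both held together for 56 of the 82 genes, against 9.95% of all genes. The median deviation from the mean of the 6 libraries, on the log2(FPKM + 1) scale, was 0.33, -0.36 and 0.20 in GC 1 to 3 for the large subunit and 0.35, -0.40 and 0.16 for the small subunit. In control 1 to 3 it was 0.00, -0.15 and 0.03 for the large and -0.01, -0.16 and 0.01 for the small subunit.

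**Figure D2:**
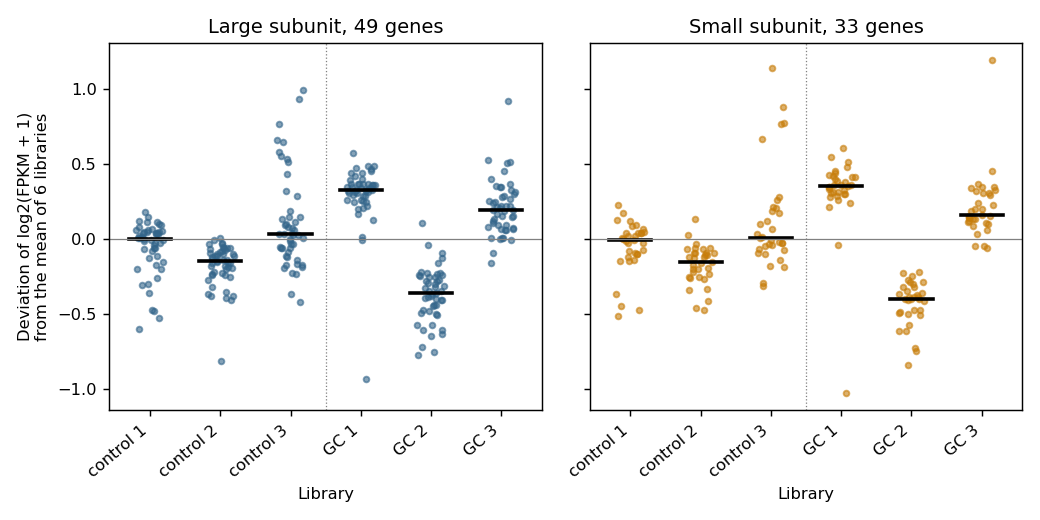
Deviation of log2(FPKM + 1) of each gene from its mean over the 6 libraries, for the large subunit (left) and the small subunit (right). Each point is a gene and each bar the median, which is 0.33 and 0.35 in GC 1 and -0.36 and -0.40 in GC 2.

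Tested across all 11730 genes by limma-trend with Benjamini-Hochberg adjustment, 0 of the 82 genes passed an adjusted p under 0.05, with 1.94% of all tested genes called. All 82 had passed the filter on low values. At an unadjusted p under 0.05 there was 1 gene, Rpl22l1, against 19.3% of all tested genes, and limma-voom on recovered reads called 0 of 78, against 3.26% of all genes. With the replicate number as a block 0 passed, against 8.96%, and 3 had an unadjusted p under 0.05, against 29.6%. Counts were also 0 with a pseudocount of 0.1 (1.79% of all genes called), no filter (0.0636%), median centring (1.99%), equal sums (2.17%) and base-composition correction (3.09%). In no gene of the 82 were the 3 GC libraries wholly above or below the 3 controls, which held for 25.6% of all tested genes. The fold change, the difference of mean log2(FPKM + 1), was positive for 65 of 82 genes, against 47.7% of all genes. Its median was 0.08 in the large and 0.06 in the small subunit, beside -0.01 over all tested genes. These medians turned negative without GC 1, at -0.06 and -0.10, so no direction is given for the family.

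The lack of calls does not show that the levels stayed equal. The median SD of log2(FPKM + 1) within a group was 0.14 in control and 0.38 in GC for the 82 genes, and 0.11 and 0.19 for all tested genes. For 357 other genes with a mean of at least 100 FPKM it was 0.11 and 0.24. The 95% interval of a fold change reached a median of 0.48 to either side on the log2 scale. The interval lay within a 1.5-fold change either way for 35 of the 82 genes, and it reached past that for the others.

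**Figure D3:**
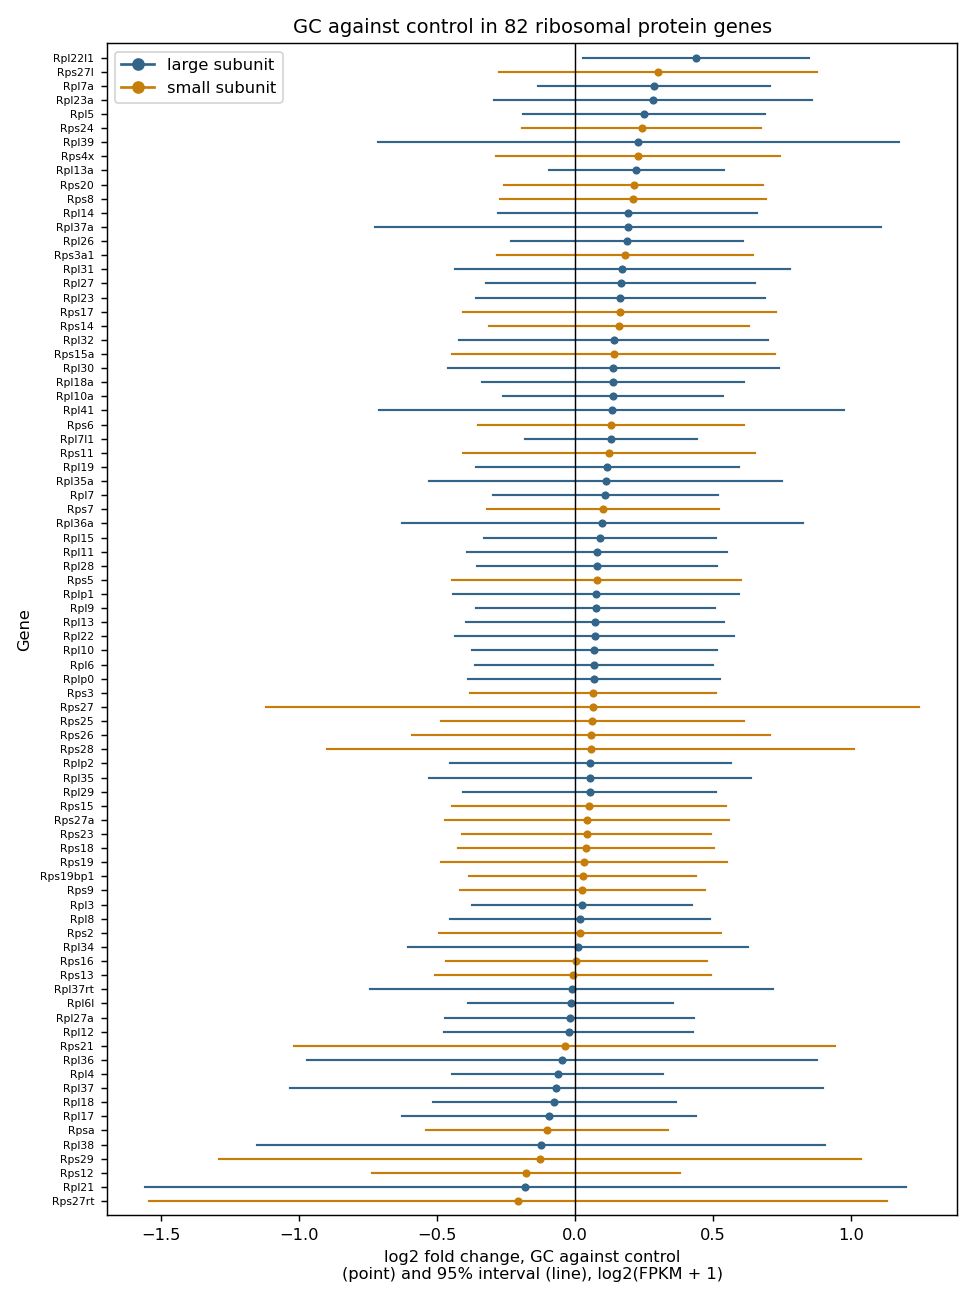
log2 fold change of GC against control (points) with 95% intervals (lines) for the 82 genes in order of size, on the log2(FPKM + 1) scale, colored by subunit. Only the interval of Rpl22l1, from 0.03 to 0.85, leaves out 0.

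In the large subunit the highest levels belonged to Rplp1 and Rplp0, of the stalk that recruits the elongation factors. Rplp1 stood at 2468, 2270 and 2466 FPKM in control 1 to 3 and at 3054, 1868 and 2835 FPKM in GC 1 to 3, a log2 fold change of 0.08 ± 0.22 (SE, limma-trend adjusted p = 0.898). Rplp0, the stalk base, averaged 1656 ± 73.1 FPKM in control, against 1761 ± 363 FPKM in GC (SD, n = 3 each). Rplp2, the partner of Rplp1, averaged 177 ± 13.5 and 189 ± 53.0 FPKM. The spread among GC libraries exceeded both differences. FPKM here divide by all annotated exons, 499 bases for Rplp1 but 2072 bases for Rplp2, whose coding transcript has 449 bases. Ranks of level between genes thus depend in part on the annotation. Rpl8 and Rpl32, the next in level, averaged 1137 ± 75.1 and 896 ± 84.1 FPKM in control, against 1170 ± 260 and 1017 ± 297 FPKM in GC.

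Rpl5 and Rpl11, whose proteins bind ribosomal RNA together and can hold back the p53 inhibitor MDM2, did not pass. Rpl5 was at 352, 301 and 291 FPKM in control and at 451, 294 and 391 FPKM in GC. Rpl11 was at 173, 153 and 175 FPKM in control and at 221, 130 and 191 FPKM in GC. In both genes GC 2 fell among or below the controls while GC 1 and GC 3 were above them. Their log2 fold changes were 0.25 ± 0.19 and 0.08 ± 0.20 (limma-trend, adjusted p = 0.536 and 0.878). Exons of Rpl5 overlap Fam69a on the opposite strand, so part of its reads is uncertain.
Rpl3, near the catalytic centre, averaged 367 ± 29.3 and 377 ± 69.3 FPKM, and Rpl10, which completes the subunit late in assembly, 500.3 ± 51.5 and 531 ± 115 FPKM.

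The paralog Rpl22l1 had the highest fold change of the family. Its protein can take the place of RPL22 in the large subunit, and in mouse cells RPL22 is known to hold the Rpl22l1 mRNA down. Rpl22l1 stood at 64.8, 56.3 and 51.4 FPKM in control and at 93.9, 61.0 and 82.4 FPKM in GC. GC 1 and GC 3 were above every control, and GC 2 lay between control 2 and control 1. The log2 fold change was 0.44 ± 0.18 with a 95% interval of 0.03 to 0.85 and a limma-trend adjusted p = 0.230, or 0.0724 with the replicate block. Rpl22 itself was at 62.7, 57.5 and 67.7 FPKM in control and at 80.1, 45.2 and 78.0 FPKM in GC, a log2 fold change of 0.07. The level of Rpl22l1 relative to Rpl22 was 1.03, 0.979 and 0.759 in control and 1.17, 1.35 and 1.06 in GC, so that GC libraries lay above control libraries in this ratio, which was singled out after its values were seen. Rpl22l1 (ENSMUSG00000039221.10) lies on the plus strand, chr3:28805436-28807424 in mm10, and overlaps an antisense gene, Gm33051.

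Rpl7a, Rpl23a and Rpl5 followed Rpl22l1 in size, with log2 fold changes of 0.29, 0.28 and 0.25. At the other end were Rpl21, Rpl38, Rpl17 and Rpl18, with -0.18, -0.12, -0.09 and -0.07. Rpl7l1 averaged 51.3 ± 4.22 FPKM in control, against 56.4 ± 8.14 FPKM in GC, and its level relative to Rpl7 stayed between 0.134 and 0.156 in all 6 libraries. Rpl13a, often used as a reference gene, was at 11.3, 9.61 and 10.98 FPKM in control and at 13.95, 10.2 and 13.8 FPKM in GC. Exons of Rpl13a overlap the protein-coding gene Gm45713 on the same strand, so the low level of Rpl13a is uncertain. Rpl3l, a paralog of heart and skeletal muscle, and Rpl10l and Rpl39l, paralogs of testis, were listed at 0 in all 6 libraries. Rpl36al, a paralog of Rpl36a, averaged 0.373 ± 0.168 and 0.491 ± 0.0201 FPKM, under the filter. Its exons share 332 bases with the protein-coding gene Gm49383 on the same strand, so its level is uncertain too.

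In the small subunit Rps3a1, which lies near the mRNA exit, was the highest. It stood at 1919, 1722 and 1637 FPKM in control and at 2379, 1600 and 2073 FPKM in GC, a log2 fold change of 0.18 ± 0.20 (limma-trend, adjusted p = 0.681). Rps2 and Rps15 averaged 1402 ± 110 and 1249 ± 33.1 FPKM in control, against 1449 ± 367 and 1321 ± 325 FPKM in GC. In all 3 genes GC 1 was the highest library and GC 2 the lowest.

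Rps6, whose protein is phosphorylated by the S6 kinases below mTORC1, stood at 514, 454 and 502 FPKM in control and at 675, 402 and 567 FPKM in GC. Its log2 fold change was 0.13 ± 0.21 (limma-trend, adjusted p = 0.796), with GC 1 and GC 3 above and GC 2 below the controls. Rps3, at the mRNA entry and also a DNA repair factor, averaged 162 ± 9.76 and 173 ± 42.6 FPKM, and Rpsa, also known as a laminin receptor, 612 ± 47.3 and 578 ± 123 FPKM. Rps14 and Rps19, the genes of inherited or acquired anemias in humans, averaged 633 ± 28.1 and 85.2 ± 12.0 FPKM in control, against 721 ± 171 and 89.2 ± 24.8 FPKM in GC. Rps4x, coded on the X chromosome, averaged 748 ± 71.4 and 895 ± 246 FPKM. Rps27a, which encodes ubiquitin fused to a ribosomal protein, averaged 221 ± 43.7 and 230.2 ± 60.1 FPKM. Rps19bp1 averaged 22.5 ± 1.57 and 23.4 ± 5.70 FPKM. None of these passed.

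Rps27l had the highest fold change of the small subunit. It encodes a near copy of RPS27 and is known as a p53 target. Rps27l stood at 154, 135 and 175 FPKM in control and at 250.1, 128 and 214 FPKM in GC, a log2 fold change of 0.30 ± 0.25 (limma-trend, adjusted p = 0.568). GC 1 and GC 3 were above every control and GC 2 below. Rps24, Rps4x and Rps20 followed with 0.24, 0.23 and 0.21. Rps27rt, Rps12, Rps29 and Rpsa had the lowest log2 fold changes, -0.21, -0.18, -0.13 and -0.10. Rps27rt, a retrotransposed copy of Rps27, varied most within GC, at 63.8, 94.5 and 302 FPKM, and reads that fit both copies make its level uncertain.

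Each GC library moved the picture when left out. Without GC 1 the fold change was positive in 23 of 82 genes, against 65 with all libraries. Without GC 3 it was positive in 42 genes, with a median of 0.03 in the large and -0.01 in the small subunit. Without control 1, 2 or 3 it was positive in 60, 50 or 71 genes. With equal sums it was positive in 51, with medians of 0.02 and 0.002. In these settings 40.4% to 48.3% of all genes were positive. Without GC 2 there were 2 genes that rose and 79 of 82 had positive fold changes, while 10.5% of all genes were called, 3.96% as higher, and 50.5% were positive. The 2 were Rpl22l1, with a log2 fold change of 0.61 ± 0.13, and Rps24, with 0.45 ± 0.10 (limma-trend, adjusted p = 0.0393 and 0.0440). Rps24, whose splice forms differ between tissues, was at 88.4, 85.9 and 96.8 FPKM in control and at 126, 79.6 and 122 FPKM in GC. Without GC 2 the median fold change was 0.30 in the large and 0.29 in the small subunit. Without control 1, 2 or 3 or GC 1 or GC 3, left out singly, 0 genes passed, with 0.315%, 0.281%, 0.247%, 0.963% and 0.136% of all genes called. With both replicate 2 libraries left out, a setting added after the data were seen, 0 genes passed as well, with 0.128% called. The labels give no reason to leave out GC 2, and its Tsc22d3, Sgk1 and Fkbp5 levels of 146, 125 and 31.3 FPKM all exceeded those of every control.

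Exon length moved with the libraries in the same way. Ribosomal protein genes are short, with a median exon length of 1754.5 bases against 4134 bases over all tested genes. Exon length counts every annotated exon of a gene, while the coding transcripts of 80 of the 82 genes had a median of 761.5 bases. Deviations are again from the mean of the 6 libraries. For the quintile of shortest genes by exons the median was 0.20, -0.15 and 0.12 in GC 1 to 3, and for the longest quintile it was -0.20, 0.09 and -0.09. Control medians of these quintiles ran from -0.08 to 0.11. Ribosomal protein genes deviated in the same direction as short genes in each GC library and by a larger amount, 0.34, -0.39 and 0.19. The same order held for 357 other genes with a mean of at least 100 FPKM, at 0.23, -0.17 and 0.03. Translation factors and other TOP-type mRNAs were at 0.20, -0.21 and 0.09. Ribosome biogenesis genes had another order, at -0.005, -0.11 and 0.05. With the length trend of each library removed, the median deviation of ribosomal protein genes was 0.16, -0.27 and 0.12 in GC 1 to 3. The order of the GC libraries was thus kept at a smaller size. The median fold change then was 0.02 in the large and -0.03 in the small subunit, 41 of 82 fold changes were positive, and 0 genes passed against 3.64% of all genes. With length correction and replicate block together Rpl22l1 passed alone, at a log2 fold change of 0.34 ± 0.08 (limma-trend, adjusted p = 0.0446), while 12.8% of all genes were called, 6.2% as higher. With length correction and without GC 2, also added after the data were seen, Rps24 passed alone, at 0.55 ± 0.09 (limma-trend, adjusted p = 0.0303), while 5.87% of all genes were called. How far length shaped the levels of these genes was not tested beyond this.

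**Figure D4:**
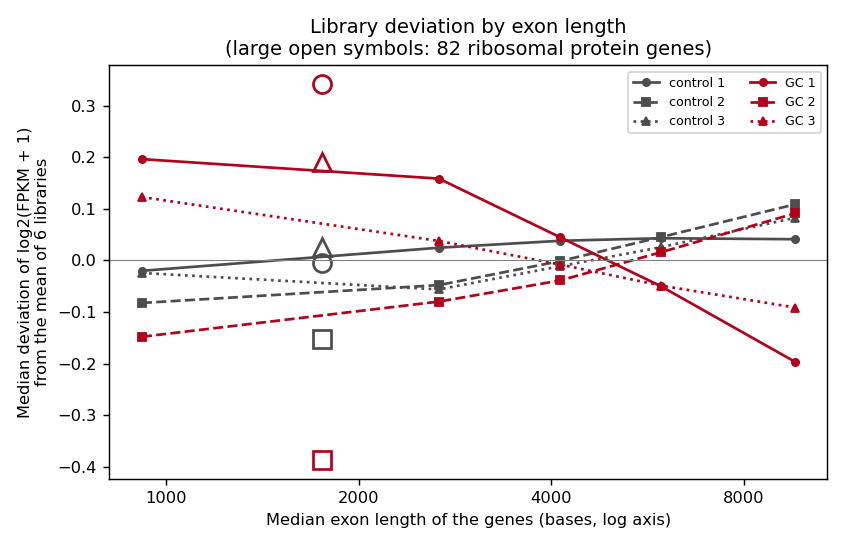
Median deviation of log2(FPKM + 1) from the mean of 6 libraries, by quintiles of all tested genes in order of exon length (small symbols, log axis in bases) and for the 82 ribosomal protein genes (large open symbols). For ribosomal protein genes GC 1 lies at 0.34 and GC 2 at -0.39, farther from 0 than genes of similar exon length.

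A smaller set of genes differed among the controls. Control 3 was the highest library for 15 of the 82 genes, against 12.4% of all genes. The share is not far above that of all genes, so the count is not read as a trait of the family. These were Rpl17, Rpl21, Rpl34, Rpl36, Rpl36a, Rpl37, Rpl37a, Rpl37rt, Rpl38, Rpl39, Rpl41, Rps21, Rps27, Rps28 and Rps29, grouped after their values were seen and so given without a test. Rps29, which encodes a zinc-binding protein of the small subunit, stood at 31.2, 31.3 and 97.7 FPKM in control and at 51.0, 26.1 and 55.2 FPKM in GC. Rpl38, known in mice for the translation of Hox mRNAs, stood at 186, 213 and 494 FPKM in control and at 290.2, 156 and 333 FPKM in GC. Rps27 stood at 97.5, 101 and 259 FPKM in control and at 213, 77.4 and 177 FPKM in GC. Rpl39, at the exit tunnel of the large subunit, stood at 54.2, 60.6 and 116 FPKM in control and at 109, 50.2 and 113 FPKM in GC. In each of these 4 genes control 3 lay far above the other controls, and the groups overlapped over most of their range.

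Most of the 15 genes had short annotated transcripts. Rpl17, Rpl21 and Rpl37 were longer by this measure, with middle lengths of their protein-coding transcripts of 1326, 1067 and 835 bases. The middle length is taken over all annotated coding transcripts of a gene, so the mRNA present in these cells may be shorter or longer. The median over the 14 genes with a coding transcript was 513.5 bases, against 799 bases for the 64 genes highest in GC 1. Among all 7 genes with a middle length of at most 450 bases, a limit set after the values were seen, control 3 exceeded the mean of the other controls by a median of 1.12 on the log2 scale, and by 0.05 among the 73 longer ones. GC 3 exceeded GC 2 by 1.09 in these 7 genes and by 0.52 in the others. Across the 80 genes with a coding transcript the difference between control 3 and the other controls had a Pearson correlation with log2 transcript length of -0.42 and a Spearman correlation of -0.40. The 80 points come from the same libraries and are not replicates. The GC fold change was positive in 2 of the 7 and in 63 of the 73 others, with medians of -0.05 and 0.08. Its correlations with transcript length across the 80 genes were 0.03 (Pearson) and -0.04 (Spearman).

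**Figure D5:**
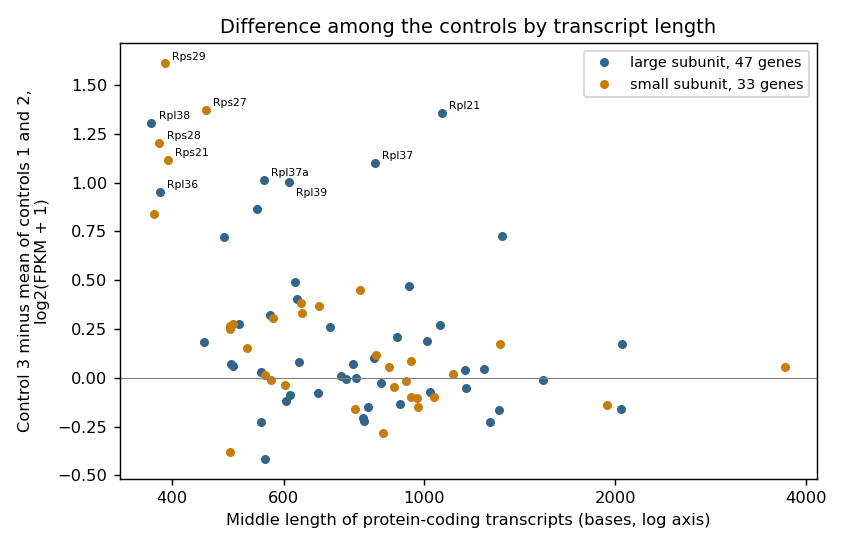
Control 3 minus the mean of controls 1 and 2 on the log2(FPKM + 1) scale against the middle length of a gene's protein-coding transcripts in bases (log axis), for 47 large-subunit and 33 small-subunit genes. Rps29 lies highest at 1.61, the 7 genes of at most 450 bases lie between 0.18 and 1.61, and some longer genes reach this range, such as Rpl21 at 1.36.

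Copies of these genes in the genome limit single levels. The table held 298 rows named as pseudogenes of the family (-ps), 87 of them with a mean of at least 1 FPKM. Of 62 parent genes with such a row, 3 had a copy listed above the parent. Rps10-ps2 averaged 405 FPKM while Rps10, left out by the limit, averaged 3.83 FPKM. Rpl17-ps10 averaged 544 FPKM against 446 FPKM for Rpl17, and Rpl21-ps15 268 FPKM against 24.6 FPKM for Rpl21. Rpl17 stood at 435, 336 and 634 FPKM in control and at 435, 426 and 411 FPKM in GC, and Rpl17-ps10 at 546, 625 and 332 FPKM in control and at 789, 370 and 604 FPKM in GC. Among controls the parent was highest where the copy was lowest, and among GC libraries the parent moved little while the copy varied. The levels of Rps10, Rpl17 and Rpl21 are therefore uncertain. The -ps rows together held 1.25%, 1.21% and 1.17% of all FPKM in control, against 1.60%, 1.05% and 1.41% in GC, the same order among GC libraries as the 82 genes. Exons of 36 of the 82 genes overlap another gene, in 25 of them on the same strand, mostly a small nucleolar RNA gene.

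Other genes of translation were counted beside the family. Of 23 tested translation factors and TOP-type mRNAs 0 passed by limma-trend, with the replicate block or with any single library left out, 2 had an unadjusted p under 0.05 (19.3% of all genes), and the median log2 fold change was 0.04. Eef1a1, the elongation factor that brings aminoacyl-tRNA, averaged 2962 ± 294 and 2967 ± 461 FPKM, and Eef2, the translocation factor, 1569 ± 149 and 1333 ± 164 FPKM. Fau, which encodes a ubiquitin-like protein fused to a ribosomal protein, had a log2 fold change of -0.01. Rack1, a scaffold on the small subunit, had 0.11.

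Of 40 ribosome biogenesis genes 1 fell and 0 rose, against 1.94% of all genes called, with a median of -0.06. Without GC 2 it was 4 that fell, against 10.5% of all genes called, with a median of 0.01. Without any other single library 0 passed, against 0.136% to 0.963% of all genes. With length correction alone 1 fell, against 3.64% of all genes called. Tcof1, which encodes treacle, a cofactor of ribosomal RNA synthesis, was at 27.5, 27.1 and 27.7 FPKM in control and at 15.5, 17.8 and 13.0 FPKM in GC. Its groups did not overlap, and its log2 fold change was -0.80 ± 0.12 (limma-trend, adjusted p = 0.0285). Tcof1 no longer passed with control 1, 2 or 3 or GC 1 or GC 3 left out, at limma-trend adjusted p-values of 0.0536 to 0.129, nor with no filter, at 0.129. Among 77 tested mitochondrial ribosomal proteins 0 passed, 3 had an unadjusted p under 0.05 (19.3% of all genes), 2 rose with the replicate block (3.96% of all genes), and the median was 0.08. Without GC 2 it was 5 that rose, against 3.96% of all genes called as higher, with a median of 0.22. Without any other single library 0 of these genes passed. With length correction alone 1 rose, against 3.64% of all genes called. Mrpl28 and Mrps24, the highest of them, averaged 80.4 ± 6.23 and 59.0 ± 7.67 FPKM in control, against 86.5 ± 19.3 and 70.7 ± 16.8 FPKM in GC. Their median deviation was 0.26, -0.23 and 0.10 in GC 1 to 3, the same order as in the cytosolic family.

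Of 14 tested genes that control TOP mRNAs and mTORC1 output 0 passed and 3 had an unadjusted p under 0.05, against 19.3% of all genes. Under the replicate block 2 were higher and 1 was lower, against 8.96% of all genes called. Without GC 2 the counts were 2 higher and 2 lower, against 10.5% of all genes called. Without GC 1 it was 1 higher, against 0.963% called, and without any other single library 0, against 0.136% to 0.315%. The 3 genes called under the block were Ddit4, Deptor and Larp1, of which the last 2 are named after their values were seen. Ddit4, an inhibitor of mTORC1 that glucocorticoids are known to induce in skeletal muscle, was at 89.7, 89.0 and 76.6 FPKM in control and at 121, 119 and 121 FPKM in GC. Deptor, a protein that binds and inhibits mTOR, was at 2.06, 2.10 and 1.69 FPKM in control and at 3.53, 6.84 and 4.77 FPKM in GC. Larp1, which binds the TOP tract, was at 38.4, 36.7 and 34.2 FPKM in control and at 23.9, 27.3 and 21.3 FPKM in GC. In all 3 the groups did not overlap, which held for 4 of the 14 and for 25.6% of all genes, and GC 2 lay on the same side of the controls as GC 1 and GC 3. limma-trend gave adjusted p-values of 0.0800, 0.0506 and 0.0545, which became 0.0328, 0.0175 and 0.0159 with the block. With length correction alone they were 0.0979, 0.0134 and 0.0374 by limma-trend, with 3.64% of all genes called. Eif4ebp2, a translation repressor that mTORC1 turns off, averaged 47.0 ± 5.30 and 42.6 ± 5.34 FPKM.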

How the data were processed

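RNA of 3 control and 3 GC libraries was read as a table of FPKM values that the authors deposited. Per the submitters' processing notes HISAT2, HTSeq, DESeq2 and mm10 were used; versions, roles, annotation and strandedness were not stated there. Values times the GENCODE M21 exon length were whole multiples of a step per library, within 0.0001, for 96.7% of 26481 rows, and these are the recovered reads. Totals count those rows only.

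Groups and replicate numbers came from the sample titles. The design calls replicates biological without naming separate cultures, so p-values measure only the spread between these samples, which may be technical. limma-trend (limma 3.58.1, R 4.3.3) was fitted on log2(FPKM + 1), two-sided, over the 11730 rows that reached 1 FPKM in 3 or more libraries. A check on simulated reads used independent libraries of the same spread, with no length trend. It therefore does not show how the test behaves on these libraries. Fold changes on this scale understate low genes. Same-numbered libraries had correlated deviations (r of 0.511, 0.248 and 0.383), so blocked values are given where they change a call. Length and base-composition trends were removed by loess (span 0.3) on GENCODE exon length and on G and C share of the longest transcript. Recovered reads entered limma-voom only, with no negative binomial test, since FPKM are not counts.

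The genes and lists were chosen with earlier results of these data known. Named genes were the 4 highest and lowest fold changes and 4 highest means of each subunit, 25 fixed names, the rows beside the limit, and up to 3 called or the 2 highest genes of each list.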

Additional observations from a re-analysis of the deposited data

How the results depend on the processing

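The count of ribosomal protein genes past the threshold stayed at 0 with a pseudocount of 0.1, no filter, the replicate block, either scaling, length correction, G and C correction and limma-voom. It ranged from 0 to 2 when libraries were left out (0 to 1 in each subunit), and was 1, of the large subunit, with length correction and the replicate block. Further settings were added after the data were seen: length correction without GC replicate 2 gave 1 gene, Rps24 of the small subunit, and leaving out both replicate 2 libraries gave 0.

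Over all genes 227 passed. The count was 17 with no filter, 1051 with the replicate block, 427 with length correction, 1499 with both, 362 with G and C correction and 361 by limma-voom. Leaving out a library gave 16 to 1227, both replicate 2 libraries 15, and length correction without GC replicate 2 gave 689. Centring on the median moved the split from 127 higher and 100 lower to 157 and 77. Without length correction the block changed no call of the 82 genes, and with length correction it added Rpl22l1.

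When libraries were left out, the median fold change ranged from -0.06 to 0.30 in the large subunit. In the small subunit it ranged from -0.10 to 0.29, so the sign changed in both. These shifts from the value with all libraries were smaller than the SD between library medians within a group (0.30 and 0.25). That SD comes from the same libraries, so a smaller shift was nearly fixed in advance and nothing is concluded from it. Of 49 named genes tested, 12 changed sign with length correction and 21 without GC replicate 1, none of them called. Of 78 genes with recovered reads 70 had at least 1000 reads in every library, and the precision of their fold changes rests on 3 libraries a group.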
